A study of Rattus norvegicus with 3 samples.

Results

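The comparison described here is between the common carotid artery of male Wistar rats 21 days and 7 days after balloon injury, 2 of the 3 samples analysed. An uninjured carotid of the same strain and sex was the other sample. All 3 were whole arteries, with total RNA extracted by TRIzol and labelled with Cy3 for one-colour Agilent rat arrays. The samples were chosen by their titles, and there was 1 array for each of uninjured, day 7 and day 21. The labels name no drug, genotype or diet for any group. The design text mentions independent experiments with different rats at each time, and 1 array for each time was analysed here. With 1 array a side no test was possible, and every value is a difference between 2 arrays. Per the labels, RNA was extracted animal by animal.

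Balloon injury strips the endothelium from the artery and stretches its muscular wall. As background, smooth muscle cells of the media then leave their contractile state, divide, migrate into the intima and lay down matrix, which forms a neointima, while leukocytes enter the wall and the adventitia is remodelled. Cell division is known to peak early in this model and the neointima to go on gaining matrix later. In whole tissue, fewer cells of a type and less RNA per cell cannot be told apart.

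The level of a gene is its log2 signal minus the 75th percentile of the array, taken over the 10602 probes present on both array designs. Levels are given below in the order uninjured, day 7, day 21, and the ratio is the level at day 21 minus that at day 7 on the log2 scale. An uninjured level is printed even where its signal was not well above background, as for Itgb2, Lpl, Ccl3, Pllp and others. The value after ± is a technical SD of the ratio, estimated from spots printed more than once. Of 7797 genes on the shared probes, 5642 were well above background on both injured arrays and have a ratio. The median ratio was -0.19 with quartiles of -0.83 and 0.42, and 3903 genes (69.2%) lay within 2-fold. Past 2-fold there were 603 genes (10.7%) with higher and 1136 (20.1%) with lower levels at day 21 than at day 7. At 4-fold these numbers were 119 and 312, and at 8-fold 11 and 59. Each gene group is read against these shares and against the median of all genes. Among all genes with a ratio, the highest level was at day 7 for 42.3% and at day 21 for 20.7%. The lowest level was in the uninjured artery for 28.6% and at day 7 for 30.8%.

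The day 7 array differed from the day 21 array not just in time after injury but in its design, scan and scanner software release, and these cannot be told apart. The uninjured and day 21 arrays were of 1 design and 1 scan. Of the shared probes, 70.0%, 79.2% and 77.0% were well above background on the uninjured, day 7 and day 21 arrays, and no spot was saturated. The balance of higher and lower genes depended on the scaling. Of the genes past 2-fold, 34.7% were higher at day 21; median scaling made this 65.8%, and it was 59.2% after quantile normalization, 57.2% after cyclic loess, 95.2% when each array was scaled by its own design, 86.4% in the authors' deposited table and 48.0% under a stricter filter on dim probes. The median of all genes moved by 0.47, 0.24, 0.20, 1.37 and 0.93 under the first 5 of these. The balance also moved with signal: in the dimmest tercile of genes 38.4% were at least 2-fold lower and 5.74% higher, in the middle tercile 13% and 14.2%, and in the brightest tercile 9.04% and 12.1%. A gene group's median is therefore given relative to the median of all genes, and groups of dim genes are also counted without the dimmest tercile. Among the 3761 genes outside that tercile, 13.2% were at least 2-fold higher and 11% lower.

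**Figure D1:**
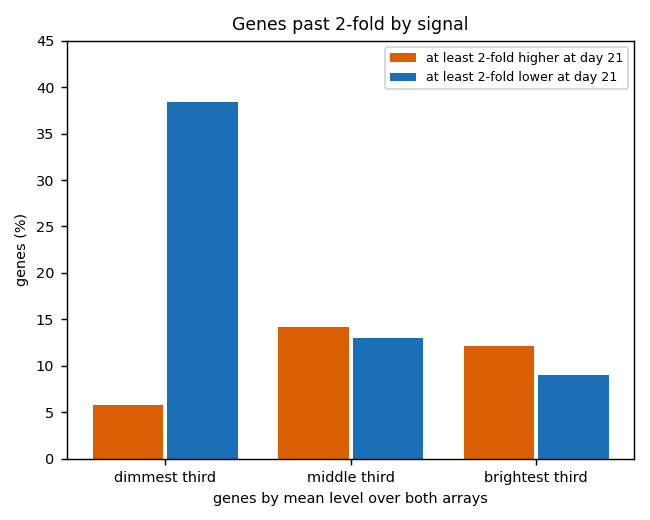
Share of genes (%) at least 2-fold higher (orange) or lower (blue) at day 21 than at day 7, for the 5642 genes split in terciles by their mean level over both arrays. In the dimmest tercile 38.4% of genes were lower and 5.74% higher, whereas the middle and brightest terciles were near balance.

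The largest differences between the days were of genes with very different known roles. Hmox1 encodes the inducible haem oxygenase that breaks haem down to iron, biliverdin and carbon monoxide, and it had levels of -1.46, 1.42 and 5.72. After scaling, its day 21 signal was 19.8-fold above that of day 7 (4.31 ± 0.05), the highest ratio of all. Apod, the gene of the lipocalin apolipoprotein D, stood at the other end with levels of -2.68, 6.61 and -3.63, a ratio of -10.24 ± 0.36. It was high on the day 7 array alone, where the level was far above both others. Other very low ratios were those of Fxyd6, a regulator of the sodium pump (-2.14, 3.41 and -3.65, ratio -7.05 ± 0.37), of Sostdc1, a secreted antagonist of BMP and Wnt (-6.58 ± 0.49), and of C1qtnf3, a secreted relative of C1q and adiponectin (-5.77 ± 0.37).

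Other genes with high ratios included B4galt6, a galactosyltransferase of glycosphingolipid synthesis (-0.11, -1.93 and 2.27, ratio 4.20 ± 0.34). Hsd11b1 encodes the enzyme that regenerates active glucocorticoid inside cells, and its levels were -2.63, -1.40 and 2.24 (3.65 ± 0.23). Both were higher at day 21 than on either of the other arrays. The aldo-keto reductase Akr1c15 was at 0.00, -1.82 and 1.66 (3.48 ± 0.32) and the glucagon receptor Gcgr at 1.67, -0.08 and 3.1 (3.18 ± 0.12), so that for both genes the level at day 7 was the lowest of the 3. At the low end were also Clec1b, a platelet and myeloid lectin receptor (-5.40 ± 0.46), Gjb2, which encodes connexin 26 (-4.96 ± 0.50), Myoc (myocilin, -4.60 ± 0.21), Krt15 (a keratin, -4.31 ± 0.56) and Glul (glutamine synthetase, -4.0 ± 0.26). Each of these 5 had its highest level at day 7. Glul kept its sign under all 12 alternative ways of processing, but its ratio there reached -0.77, within 2-fold.

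**Figure D2:**
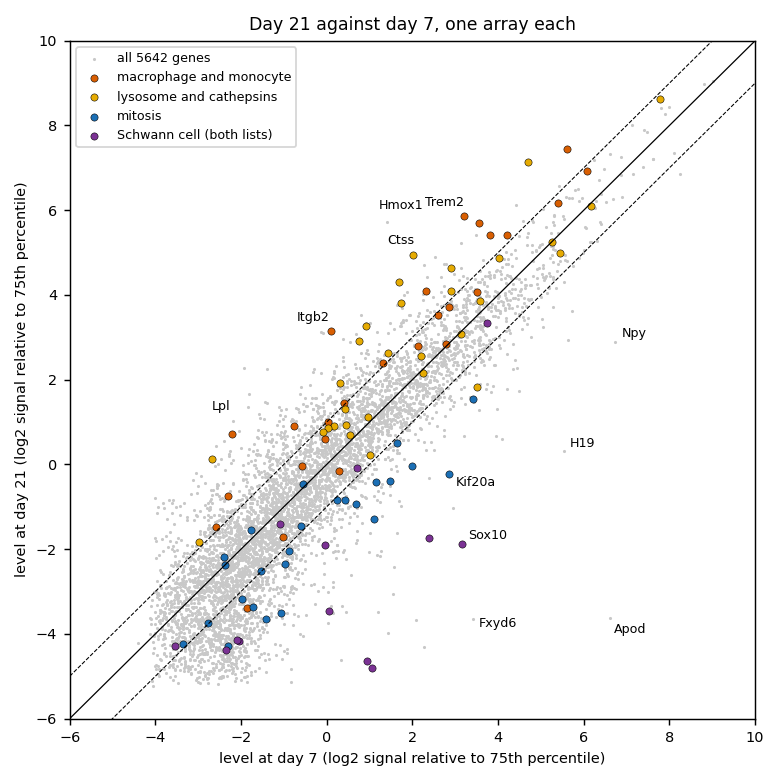
Level at day 21 against level at day 7 (both log2 signal relative to the 75th percentile of the array) for 5642 genes, 1 array each. The solid line marks equal levels and the dashed lines 2-fold. Macrophage (orange) and lysosomal (yellow) genes lie mostly above the solid line, mitosis (blue) and Schwann cell (purple) genes mostly below it, with Hmox1 at a ratio of 4.31 and Apod at -10.24.

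Macrophage and monocyte genes were higher at day 21 than at day 7. Of 26 with a ratio, 13 were at least 2-fold higher and 1 lower, where 10.7% and 20.1% of all genes were. Their median ratio was 1.0, which is 1.19 above that of all genes, and it lay above all genes under all 12 alternative ways of processing that were tried. For this and every other list, median scaling, own-design scaling and scaling over shared probes above background shift all genes equally. These alternatives could not change the place of a list's median against all genes. All 27 members on the shared probes were well above background at day 21, against 26 at day 7 and 19 in the uninjured artery, and the median level of the list was -2.17, 1.30 and 2.79 on the 3 arrays.

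Adhesion and uptake receptors led this list. Itgb2 encodes the beta 2 chain shared by the leukocyte integrins and had levels of -4.93, 0.09 and 3.14 (3.05 ± 0.12). The mannose receptor Mrc1, a mark of tissue-resident and alternatively activated macrophages, was at -2.83, -2.20 and 0.71 (2.91 ± 0.48). The day 7 level of Mrc1 thus lay near that of the uninjured artery, whereas that of Itgb2 lay between the others. The uninjured signal of Itgb2 was not well above background. The lipid-sensing receptor Trem2 was at -0.37, 3.20 and 5.85 (2.65 ± 0.16), and the glycoprotein Gpnmb, which foamy macrophages carry, at -0.92, 3.55 and 5.69 (2.14 ± 0.16). The scavenger receptor Msr1 was at -4.55, -2.32 and -0.76 (1.56 ± 0.57), and the Fc receptor gene Fcgr3a at -4.19, -0.77 and 0.91 (1.69 ± 0.25). For each of these 4 the level was lowest in the uninjured artery and highest at day 21. The galectin gene Lgals3 had almost the same level in the uninjured artery and at day 7 (5.55 and 5.61) and was at 7.44 at day 21 (1.83 ± 0.16).

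Members nearer the middle included the signalling adaptors Tyrobp (1.85, 6.08 and 6.93, ratio 0.85 ± 0.16) and Fcer1g (0.76 ± 0.16), the lipopolysaccharide co-receptor Cd14 (0.56 ± 0.16) and the integrin alpha chain Itgam (0.54 ± 0.31). These were already above their uninjured level at day 7. On the other side were the platelet and leukocyte protein gene Plek (-0.68 ± 0.32) and Spi1, which encodes the myeloid transcription factor PU.1 (-3.07, -1.86 and -3.40, ratio -1.55 ± 0.41). Spi1 was the 1 member at least 2-fold lower, and its signal was in the dimmest tercile of genes.

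The promoters of macrophage genes are known for purine-rich sites of PU.1. In RefSeq promoters of the GRCr8 assembly, a window around each annotated start, the letters GAGGAA on either strand were found in 12 of the 14 macrophage members with a ratio and a promoter (85.7%), and in 27.5% of all 27457 promoters. The promoters of Mrc1 (chr17:82157475-82157774, plus strand) and Trem2 (chr9:20151730-20152029, minus strand) are shown because these genes had the highest ratios among members with a match. Capitals mark GAGGAA or its complement, here all on the opposite strand.
Mrc1: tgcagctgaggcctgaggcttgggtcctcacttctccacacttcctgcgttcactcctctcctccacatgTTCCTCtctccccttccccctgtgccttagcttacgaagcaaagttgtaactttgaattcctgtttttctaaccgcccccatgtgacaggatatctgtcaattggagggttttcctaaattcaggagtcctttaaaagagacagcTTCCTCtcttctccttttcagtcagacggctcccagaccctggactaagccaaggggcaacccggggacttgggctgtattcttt
Trem2: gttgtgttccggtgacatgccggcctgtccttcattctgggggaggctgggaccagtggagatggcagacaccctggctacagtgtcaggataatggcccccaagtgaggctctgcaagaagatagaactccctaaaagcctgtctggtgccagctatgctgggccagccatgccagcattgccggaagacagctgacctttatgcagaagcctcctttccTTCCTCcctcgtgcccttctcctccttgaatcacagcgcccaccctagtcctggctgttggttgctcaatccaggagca
In Mrc1 the matches began at bases -180 and -35 from the start, and in Trem2 at base -29. A match is a description of the letters and not of binding.

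Lysosomal genes were also higher at day 21, in a pattern close to that of the macrophage list. Lysosomes digest what a cell takes up, with cathepsins as proteases and a proton pump that keeps the interior acid. Of 30 members with a ratio, 12 were at least 2-fold higher and 1 lower. The median ratio was 0.85, which is 1.04 above all genes and lay above them under all 12 alternatives.

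The highest were cathepsin S (Ctss, -0.30, 2.01 and 4.94, ratio 2.93 ± 0.16), which macrophages use in antigen processing, and Atp6v0d2, a proton pump subunit of macrophages and osteoclasts (2.81 ± 0.36). Lgmn, which encodes the protease legumain, was at 1.88, 1.69 and 4.31 (2.61 ± 0.15). Cathepsin D (Ctsd) was at 5.25, 4.69 and 7.14 (2.45 ± 0.16), and the cholesterol carrier Npc2 at 1.61, 0.92 and 3.25 (2.34 ± 0.15). For Lgmn, Ctsd and Npc2 the day 7 level lay at or somewhat below that of the uninjured artery, so the higher level was seen at day 21 alone. Ctsc (2.15 ± 0.15) showed the same order. The acid lipase Lipa, which frees cholesterol from its esters, was at 0.15, 1.72 and 3.81 (2.08 ± 0.15), higher on each later array. In the middle lay Lamp2 (0.85 ± 0.25) and cathepsin B (Ctsb, 0.85 ± 0.16).

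The membrane proteins Cd63 (0.01 ± 0.12) and Lamp1 (-0.05 ± 0.16) and the protective protein Ctsa (-0.07 ± 0.16) were nearly level between the days. Lower values were those of cathepsin L (Ctsl, -0.46 ± 0.16), the galactosidase Glb1 (-0.77 ± 0.31) and cathepsin K (Ctsk, 0.29, 3.50 and 1.84, ratio -1.66 ± 0.16). Cathepsin K, a strong collagenase and elastase, was the 1 member at least 2-fold lower, and both injured levels were above the uninjured one. The list therefore held cathepsins on both sides.

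The CLEAR element, through which TFEB acts on lysosomal genes, holds the letters TCACGTG. They were found in 6 of the 22 lysosomal members with a ratio and a promoter (27.3%) and in 3.43% of all promoters. Of the 8 such members at least 2-fold higher, 1 had a match. That member was Ctsd, whose promoter (chr1:206968772-206969071, minus strand) is shown with TCACGTG and its complement in capitals.
Ctsd: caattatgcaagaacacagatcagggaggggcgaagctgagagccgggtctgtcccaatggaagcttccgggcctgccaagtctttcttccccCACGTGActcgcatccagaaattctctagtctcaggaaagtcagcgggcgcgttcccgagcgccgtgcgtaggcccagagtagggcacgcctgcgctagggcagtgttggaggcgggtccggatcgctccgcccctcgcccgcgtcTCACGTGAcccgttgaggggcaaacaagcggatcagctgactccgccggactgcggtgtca
The matches began at bases -157, -11 and -10, and the last 2 overlap on opposite strands.

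Genes of lipid uptake and efflux were mixed, with more members higher than lower at day 21. Of 18 with a ratio, 7 were at least 2-fold higher and 1 lower. Their median ratio was 0.17, 0.36 above all genes, and above them under all 12 alternatives. Lipoprotein lipase (Lpl), which releases fatty acids from circulating lipoproteins, was at -5.08, -2.18 and 1.03 (3.22 ± 0.15), and the fatty acid carrier Fabp4 of fat cells and macrophages at -0.07, 1.75 and 3.69 (1.94 ± 0.15). The cholesterol exporters Abcg1 (0.22, 1.48 and 3.33, ratio 1.85 ± 0.15) and Abca1 (-1.48, -0.33 and 1.31, ratio 1.64 ± 0.20) were both higher, as was Nr1h3 (1.01 ± 0.20), which encodes the receptor LXR alpha that acts on both. Apoe was already at 7.13 at day 7 and at 8.01 at day 21 (0.88 ± 0.16). The low-density lipoprotein receptor relative Lrp1 (0.11 ± 0.21) and the scavenger receptor Scarb1 (-0.03 ± 0.31) were nearly level. Nceh1, a cholesterol ester hydrolase, was lower (-1.98 ± 0.48). Lpl and Fabp4 also mark fat cells. Of 8 adipocyte genes with a ratio, 2 were at least 2-fold higher, namely these 2, and 1 lower, the glucose transporter Slc2a4 (3.31, 1.10 and -0.40, ratio -1.5 ± 0.10). Cfd, the fat cell serine protease adipsin, was at 0.54 ± 0.16. The part of fat cells in the lipid genes was not tested.

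Genes of haem and iron handling and of the NRF2 response to oxidants were higher at day 21, with Hmox1 in front. Of 18 with a ratio, 7 were at least 2-fold higher and 1 lower. They had a median ratio of 0.53, 0.73 above all genes, and above them under all 12 alternatives. The aldo-keto reductase Akr1b8 was at -3.77, 0.92 and 3.34 (2.42 ± 0.15). Iron exporter genes were higher: ferroportin (Slc40a1) was at -3.64, -1.42 and 0.77 (2.18 ± 0.31), and its partner ferroxidase hephaestin (Heph) at -4.24, -2.56 and -0.50 (2.06 ± 0.68). Slc11a1, the metal transporter of phagosomes, was at -3.25, -0.49 and 1.37 (1.86 ± 0.19). All 4 had their lowest level in the uninjured artery and their highest at day 21, although Akr1b8 and Heph were not well above background when uninjured. Glutathione reductase (Gsr, -1.73, -2.67 and -0.92, ratio 1.75 ± 0.38) and peroxiredoxin 1 (Prdx1, 3.43, 3.13 and 4.63, ratio 1.5 ± 0.16) were lowest at day 7. Thioredoxin (Txn1, 0.58 ± 0.12), biliverdin reductase (Blvra, 0.02 ± 0.38) and the constitutive haem oxygenase Hmox2 (-0.26 ± 0.15) lay within 2-fold. The transferrin receptor gene Tfrc, which brings iron in, was at -0.67 ± 0.31. The multicopper ferroxidase ceruloplasmin (Cp) was lower (-2.30, -1.47 and -3.62, ratio -2.15 ± 0.40). The antioxidant response element, searched as TGACNNNGC on both strands, was found in 5 of 13 promoters of this list (38.5%) and in 12.2% of all promoters. Of the 4 members with a promoter that were at least 2-fold higher, 1 had a match. Haemoglobin and red cell genes were not higher at day 21: of 7 red cell and platelet genes with a ratio none was at least 2-fold higher and 3 were lower, with haemoglobin beta (Hbb) at -1.55 ± 0.33.

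Complement genes lay mostly on the higher side. Of 12 with a ratio, 6 were at least 2-fold higher and 1 lower. With a median ratio of 0.97, the list lay 1.17 above all genes, and it was above them under all 12 alternatives. C6, a component of the membrane attack complex, was at -0.46, -0.14 and 3.12 (3.26 ± 0.15), high at day 21 alone. In the classical pathway, the protease C1s was at 2.18, 2.26 and 4.71 (2.45 ± 0.16), C1qc at -0.26, 2.31 and 4.09 (1.78 ± 0.16), C1qa at 0.79, 3.81 and 5.41 (1.60 ± 0.16) and C1r at 0.92 ± 0.12. The central component C3 was at -2.28, 1.98 and 3.15 (1.16 ± 0.15). C2 was level between the days (-3.07, 2.68 and 2.59, ratio -0.09 ± 0.16), though at 1.06 in the authors' deposited table. The inhibitor Cfi, which cleaves C3b, was lower, at -4.66, -1.88 and -4.78 (-2.90 ± 0.52), and C8a was seen at day 7 only and was at least 7.08-fold lower at day 21.

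Of 16 chemokine and receptor genes with a ratio, 8 were at least 2-fold higher and 2 lower. Their median ratio was 0.99, 1.18 above all genes, and above them under all 12 alternatives. Among ligands, Ccl3 was at -6.05, -2.58 and 0.43 (3.02 ± 0.34) and Cxcl1, which attracts neutrophils, at -1.83, -1.39 and 1.45 (2.84 ± 0.17). The monocyte attractants Ccl2 (0.25, 0.80 and 3.52, ratio 2.72 ± 0.05) and Ccl7 (-1.66, 0.79 and 2.62, ratio 1.83 ± 0.15) were higher too. Ccl2 and Cxcl1 were near their uninjured level at day 7. The stromal ligand Cxcl12 (-0.58, 1.77 and 3.40, ratio 1.63 ± 0.15) and both of its receptors, the scavenging Ackr3 (-0.42, -2.05 and 0.79, ratio 2.83 ± 0.42) and the signalling Cxcr4 (-2.28, -0.15 and 1.14, ratio 1.29 ± 0.21), were at least 2-fold higher. The membrane-bound ligand Cx3cl1 was at 2.52, 0.47 and 1.96 (1.49 ± 0.14), lowest at day 7. The lymphoid chemokine Ccl21 (-1.83 ± 0.70) and Ppbp (-1.88 ± 0.41), a platelet chemokine that also attracts neutrophils, were lower, both in the dimmest tercile of genes. The interferon-induced Cxcl9 (-0.86 ± 0.33) and Cxcl10 (-0.17 ± 1.12, but 1.58 in the authors' deposited table) lay within 2-fold.

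Cytokines and their receptors went both ways, with 5 of 20 at least 2-fold higher and 5 lower. Their median was 0.47, 0.66 above all genes, and above them under all 12 alternatives. Il18 was at -3.44, -0.10 and 1.67 (1.77 ± 0.16), the interleukin 6 receptor Il6r at -2.06, -0.99 and 1.15 (2.14 ± 0.20), the receptor chain Il13ra1 at 1.88 ± 0.21 and the macrophage factor Mif at 1.21 ± 0.16. Il1b (0.98 ± 0.11) and its antagonist Il1rn (0.37 ± 0.15) were within 2-fold. The receptor Il1rl1, which binds interleukin 33, was at -6.25, 1.20 and -3.48 (-4.68 ± 0.31), and its uninjured signal was not well above background. Its ligand Il33 was at 1.07, 2.06 and 0.73 (-1.34 ± 0.26), and the decoy receptor Il1r2 at -2.26 ± 0.26. Csf1, the growth factor of macrophages, was lower (0.95, 1.72 and -0.99, ratio -2.71 ± 0.32), whereas its receptor Csf1r was at 0.95 ± 0.23.

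Antigen presentation genes of MHC class II were high on both injured arrays and similar between them. The invariant chain Cd74 was at -1.64, 3.50 and 3.99 (0.49 ± 0.16), RT1-Bb at -3.55, 2.52 and 2.16 (-0.36 ± 0.16) and RT1-Da at -1.99, 3.12 and 2.70 (-0.42 ± 0.16). None of the 4 members with a ratio passed 2-fold.

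Lymphocyte genes were sparse and uneven. Of 19 T and NK cell genes on the shared probes, 9 were well above background when uninjured, 13 at day 7 and 16 at day 21. Of 12 with a ratio, 2 were at least 2-fold higher and 3 lower. Cd8a was at -4.55, -3.12 and -0.37 (2.75 ± 0.97) and Cd7 at -2.91, -3.44 and -0.99 (2.44 ± 1.08). Subunits of the T cell receptor complex lay within 2-fold, Cd3g at 0.96 ± 0.32, Cd3d at 0.75 ± 0.28 and Cd3e at -0.40 ± 1.29. The granzyme Gzmk (-2.55 ± 0.48), the kinase Lck (-1.79 ± 0.54) and perforin (Prf1, -1.38 ± 1.06) were lower. For B and plasma cells, Mzb1, a chaperone of antibody secretion, was at -3.39, -4.01 and -0.79 (3.22 ± 1.22), and the coactivator Pou2af1 at -1.12, -1.57 and 1.09 (2.66 ± 0.31). The B cell receptor chain Cd79b and the plasma cell factor Prdm1, both seen at day 21 and not at day 7, were at least 4.08-fold and 4.38-fold higher. Against these, the receptor Fcer2 was lower (-2.64 ± 0.63), as was the kinase Blk (-1.45 ± 0.73), and both are in the dimmest tercile. Of the T and NK and the B and plasma cell genes with a ratio, 5 of 12 and 3 of 7 lay outside the dimmest tercile.

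Neutrophil genes also split. The calprotectin subunits S100a8 (-3.0, -0.59 and -2.24, ratio -1.65 ± 0.27) and S100a9 (-2.11, 0.24 and -1.90, ratio -2.14 ± 0.29) were lower at day 21 and close there to the uninjured level. Ngp, a neutrophil granule protein seen at day 7 only, was at least 9.13-fold lower at day 21. The leukotriene enzyme Alox5, which macrophages also make, was higher (2.35 ± 0.92), and Lcn2 (0.28 ± 0.27) and Mmp9 (0.36 ± 0.11) were within 2-fold. Of the 7 with a ratio, 1 was higher and 3 were lower, and the place of the list's median against all genes turned in 3 of the 12 alternatives.

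Genes of mitosis were lower at day 21 than at day 7. For 21 of 25 the uninjured level was the lowest of the 3, where this held for 28.6% of all genes. Of 25 with a ratio, 17 were at least 2-fold lower and none higher, where 20.1% of all genes were lower. The median ratio was -1.28, which is 1.09 below all genes, and it lay below them under all 12 alternatives, although when each array was scaled by its own design the median itself was 0.095, against 1.18 for all genes. Among the 15 members outside the dimmest tercile of genes, 12 were at least 2-fold lower, where 11% of such genes were.

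Kif20a, a kinesin of the final step of cell division, was at -1.91, 2.86 and -0.22 (-3.08 ± 0.32). Cdk1, the master kinase of mitotic entry, was at -2.71, 3.42 and 1.55 (-1.87 ± 0.15), and its partner cyclin B1 (Ccnb1) at -3.46, 1.48 and -0.40 (-1.88 ± 0.32). All 3 were highest at day 7 and lowest in the uninjured artery. Ube2c, which marks mitotic cyclins for destruction, was at -2.38, 1.99 and -0.03 (-2.02 ± 0.31), and securin (Pttg1), which holds sister chromatids together until anaphase, at -2.93, 1.14 and -0.43 (-1.56 ± 0.32). The kinase Aurkb was at -3.13, -1.07 and -3.51 (-2.43 ± 0.34) and the spindle factor Tpx2 at -3.37, -1.43 and -3.66 (-2.23 ± 0.41). For Aurkb and Tpx2 the day 21 level was near or below the uninjured one. The centromere proteins Cenpt (-2.40 ± 0.33) and Cenpa (-1.97 ± 0.68) were also lower. Members that lay within 2-fold were Plk1 (-2.91, -0.55 and -0.46, ratio 0.09 ± 0.32), Incenp (0.21 ± 0.41), Kif15 (0.22 ± 0.58) and Birc5 (-0.98 ± 0.33). Plk1, a kinase of mitotic entry and spindle assembly, thus had almost the same level at both times.

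Promoters of mitosis genes are known for CCAAT boxes, bound by NF-Y, and for the cell cycle homology region, through which the DREAM and MuvB complexes act. The letters CCAAT were found on either strand in 13 of 18 mitosis members with a ratio and a promoter (72.2%) and in 37.7% of all promoters. The homology region, searched as TTTGAA, was found in 15 of 18 (83.3%) against 18.1% of all promoters, and its other form TTCGAA in 0 of 18 against 1.77%. Of the 11 members at least 2-fold lower, 9 held CCAAT and 9 held TTTGAA. The promoters of the 4 members with the lowest ratios of those with a promoter are shown, with CCAAT or TTTGAA and their complements in capitals. They are Kif20a (chr18:26504172-26504471, plus strand), Cenpa (chr6:31431503-31431802, minus strand), Ccnb1 (chr2:33655176-33655475, minus strand) and Cdk1 (chr20:19265043-19265342, plus strand) on GRCr8.
Kif20a: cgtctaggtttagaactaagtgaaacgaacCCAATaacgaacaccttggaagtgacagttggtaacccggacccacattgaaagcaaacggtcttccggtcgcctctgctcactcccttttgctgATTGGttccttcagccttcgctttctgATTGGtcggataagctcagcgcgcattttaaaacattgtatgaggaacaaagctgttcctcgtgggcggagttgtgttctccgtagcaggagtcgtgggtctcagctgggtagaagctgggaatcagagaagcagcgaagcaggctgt
Cenpa: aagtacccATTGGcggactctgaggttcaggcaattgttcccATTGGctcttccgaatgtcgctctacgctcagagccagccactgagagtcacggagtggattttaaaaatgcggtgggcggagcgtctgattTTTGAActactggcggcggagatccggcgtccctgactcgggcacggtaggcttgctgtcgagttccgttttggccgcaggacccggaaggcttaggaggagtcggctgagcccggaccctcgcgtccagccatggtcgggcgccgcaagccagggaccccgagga
Ccnb1: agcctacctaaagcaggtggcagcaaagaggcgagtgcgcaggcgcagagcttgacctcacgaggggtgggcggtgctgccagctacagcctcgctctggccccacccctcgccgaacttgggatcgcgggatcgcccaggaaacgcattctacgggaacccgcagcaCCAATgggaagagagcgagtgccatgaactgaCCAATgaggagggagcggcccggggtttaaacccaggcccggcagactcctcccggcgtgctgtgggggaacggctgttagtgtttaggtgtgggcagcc
Cdk1: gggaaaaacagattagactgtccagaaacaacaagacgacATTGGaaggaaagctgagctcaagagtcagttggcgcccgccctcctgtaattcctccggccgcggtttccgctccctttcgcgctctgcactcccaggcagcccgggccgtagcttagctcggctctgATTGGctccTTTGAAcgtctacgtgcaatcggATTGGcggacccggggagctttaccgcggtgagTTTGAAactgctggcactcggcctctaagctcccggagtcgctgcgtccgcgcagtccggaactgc
Kif20a held 3 CCAAT boxes, beginning at bases -220, -125 and -98 from the start. Ccnb1 held 2, at -82 and -50, both on the same strand as the gene. Cdk1 held 3 CCAAT boxes on the opposite strand, at -210, -81 and -49, and TTTGAA at -72 and -16. In Cenpa, CCAAT was at -242 and -208 and TTTGAA at -116.

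DNA replication genes were lower to a smaller degree. Of 26 with a ratio, 12 were at least 2-fold lower and none higher. The median was -0.85, 0.66 below all genes, and below them under all 12 alternatives, although the median itself was 0.52 when each array was scaled by its own design and 0.11 in the authors' deposited table. Of this list, 6 of the 16 members outside the dimmest tercile were at least 2-fold lower. Orc1 of the origin recognition complex (-2.20 ± 0.47) and the polymerase subunits Pola1 (-2.13 ± 0.46) and Pole (-2.04 ± 0.71) were lowest. Other members lay nearer 0, such as the flap nuclease Fen1 (-1.53, 0.51 and 0.28, ratio -0.22 ± 0.29), the primase Prim1 (-0.64 ± 0.23) and the clamp loader subunit Rfc1 (0.75 ± 0.27). The letters TTGGCGC of E2F sites were in 6 of 22 promoters of this list (27.3%) and in 2.43% of all. Genes that restrain the cell cycle were mostly within 2-fold: p21 (Cdkn1a) was at 3.70, 2.32 and 2.98 (0.66 ± 0.11, but -1.30 in the authors' deposited table), p27 (Cdkn1b) at 1.45, 1.94 and 2.41 (0.47 ± 0.05) and Rb1 at 1.15, 0.18 and 0.92 (0.74 ± 0.23). The p53 regulator Mdm2 (1.16 ± 0.25) and cyclin D2 (Ccnd2, 1.24 ± 0.45) were higher. Of the 17 members, 13 lay within 2-fold.

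**Figure D3:**
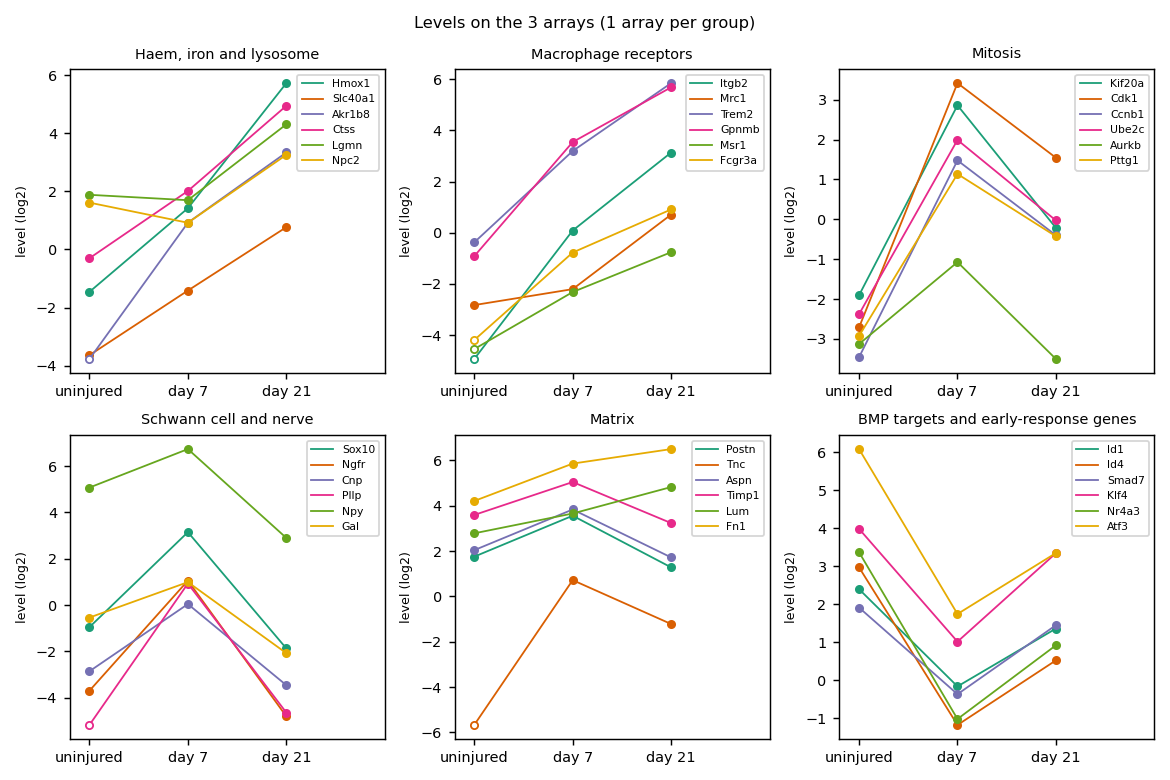
Levels (log2 signal relative to the 75th percentile) of selected genes on the uninjured, day 7 and day 21 arrays, 1 array each, so no error between animals is drawn. Filled points were well above background and open points were not. The haem, lysosome and macrophage genes end highest at day 21, the mitosis and Schwann cell genes peak at day 7, and the BMP targets and early-response genes are lowest at day 7.

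Contractile smooth muscle genes checked the tissue label: all 20 on the shared probes were well above background on all 3 arrays. Between the injured arrays they did not move as a group. The median was -0.13, 0.06 above all genes, with 2 members at least 2-fold higher and 5 lower, and the place of the median against all genes turned in 2 of 12 alternatives. Transgelin (Tagln) was at 7.24, 5.04 and 4.70 (-0.34 ± 0.16), calponin (Cnn1) at 3.20, 0.13 and -0.07 (-0.20 ± 0.31) and the myosin light chain Myl9 at 5.97, 3.71 and 3.06 (-0.65 ± 0.16). These 3 were well below their uninjured level on both injured arrays.

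Some thin filament and adhesion genes were on the higher side at day 21. The tropomyosins Tpm1 (6.76, 3.91 and 4.46, ratio 0.56 ± 0.16) and Tpm2 (0.65 ± 0.16), the LIM protein Csrp1 (0.87 ± 0.16) and Srf, the transcription factor of contractile genes (4.82, 2.91 and 3.66, ratio 0.76 ± 0.16), were within 2-fold. For Srf the authors' deposited table gives -4.02, so its direction is uncertain. Mustn1 was at 3.73, 0.18 and 1.20 (1.03 ± 0.19). Vinculin (Vcl) was at 1.44 ± 0.12, but a second probe of the gene was lower by 2-fold or more, so its direction is uncertain. On the other side were Ppp1cb, the catalytic subunit of myosin phosphatase (3.64, 0.39 and -2.02, ratio -2.41 ± 0.28), the laminin-binding integrin Itga7 (-2.0 ± 0.33, but 2.67 in the authors' deposited table), the actin nucleator Lmod1 (-2.11 ± 0.51) and desmin (Des, 3.50, 1.51 and 0.12, ratio -1.39 ± 0.31). Desmin and Ppp1cb were thus lower at each later array.

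Channels and receptors of vascular tone were spread evenly, with 5 of 30 at least 2-fold higher and 5 lower, a median of -0.13 and a place against all genes that turned in 4 of 12 alternatives. The sulphonylurea receptor Abcc9 of vascular potassium channels was at 1.11, -1.12 and 1.35 (2.47 ± 0.23), at day 21 close to the uninjured artery. Prostacyclin synthase (Ptgis), whose product relaxes the wall, was at 3.90, 0.83 and 2.11 (1.28 ± 0.15), and thromboxane synthase (Tbxas1), whose product constricts it and which macrophages make, at -2.48, 2.15 and 3.57 (1.41 ± 0.15). The angiotensin receptor Agtr1a was highest at day 7, at 0.31, 2.87 and 1.31 (-1.56 ± 0.07). The potassium channel Kcna5 (-2.48 ± 0.61) and the vasopressin receptor Avpr1a (-1.65 ± 0.13) were lower, both dim.

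Of 25 genes with a ratio in the list of matricellular proteins and proteoglycans, 2 were at least 2-fold higher and 9 lower. Outside the dimmest tercile 2 of 22 were higher and 6 lower. The protease gene Ctss is counted in this list and among its higher members. The list's median of -0.21 differed from all genes by 0.01 and its side turned in 2 of 12 alternatives. Periostin (Postn), which links collagen to cells in healing tissue, was at 1.75, 3.56 and 1.28 (-2.28 ± 0.21). Tenascin C (Tnc) was at -5.68, 0.72 and -1.22 (-1.94 ± 0.33), asporin (Aspn) at 2.04, 3.83 and 1.72 (-2.11 ± 0.17) and Tgfbi, a TGF-beta induced adhesion protein, at 2.18, 4.38 and 2.47 (-1.92 ± 0.16). All 4 were highest at day 7, and except for Tnc their day 21 level lay close to the uninjured one. The hyaluronan-binding protein Tnfaip6 had the lowest ratio of the list (-3.18 ± 0.51), and aggrecan (Acan) was at -4.24, -0.88 and -3.18 (-2.30 ± 0.24). Osteoglycin (Ogn) was lower at each later array (5.62, 4.56 and 3.19, ratio -1.37 ± 0.16).

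The higher members of that list were lumican (Lum), a collagen-binding proteoglycan, at 2.78, 3.66 and 4.82 (1.17 ± 0.16), and Ctss, described above. Ctss encodes a protease and not a matricellular protein or proteoglycan, so lumican was the only higher member of that kind. Fibronectin (Fn1) was at 4.21, 5.86 and 6.50 (0.64 ± 0.16), and Ccn2, a matricellular target of TGF-beta, at 7.48, 5.05 and 6.03 (0.98 ± 0.05). Osteopontin (Spp1, 4.04, 6.86 and 6.83, ratio -0.03 ± 0.05), cartilage oligomeric matrix protein (Comp, -0.34, 2.76 and 2.94, ratio 0.19 ± 0.16) and matrix Gla protein (Mgp, 8.98, 9.02 and 9.06, ratio 0.04 ± 0.16) were level between the days. Spp1 and Comp were thus equally far above the uninjured artery at both times.

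Collagens differed by type. Col1a1 was at 6.97, 8.24 and 6.85 (-1.39 ± 0.16), back near its uninjured level, whereas Col3a1 was at 9.86, 8.80 and 8.98 (0.18 ± 0.16) and the injury collagen Col8a1 at -2.30, -0.05 and 0.35 (0.41 ± 0.29). Among enzymes that process collagen, the prolyl hydroxylase subunit P4ha1 was at 0.88 ± 0.15, the lysyl oxidase relatives Loxl1 and Loxl2 at 0.19 ± 0.15 and 0.14 ± 0.31, and P3h2 at -2.16 ± 0.57. The ratio of Loxl1 was as high as 3.06 among the 12 alternative ways of processing. Of 12 such enzymes 3 were at least 2-fold lower and 9 lay within 2-fold.

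Of 9 elastic fibre genes with a ratio, 3 were at least 2-fold lower and none higher. The median was -0.57, 0.37 below all genes, a side that turned in 1 of 12 alternatives. The 3 lower members were microfibril-associated proteins. Mfap5 was at 5.15, 5.63 and 2.93 (-2.69 ± 0.16), Mfap4 at 3.28, 3.87 and 1.85 (-2.02 ± 0.16) and Mfap2 at -1.54 ± 0.23. These proteins sit on fibrillin fibres. Fibrillin 1 itself (Fbn1) was at 3.62, 3.18 and 2.61 (-0.57 ± 0.16), within 2-fold, and fibulin 5 (Fbln5), which organises elastin, at 2.38, 1.89 and 2.23 (0.33 ± 0.15). Mfap5 also marks adventitial fibroblasts. Other fibroblast genes went both ways: the receptor Pdgfra was at 1.03, 0.77 and 2.29 (1.51 ± 0.12), decorin (Dcn) at 4.85, 3.90 and 3.97 (0.07 ± 0.12) and the activation marker Fap at -0.06, 0.66 and -0.98 (-1.65 ± 0.33). Of 12 fibroblast genes with a ratio, 2 were at least 2-fold higher and 3 lower.

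Basement membrane genes were lower as a list. Of 7 with a ratio, 5 were at least 2-fold lower and none higher. The median was -1.40, 1.21 below all genes, and below them under all 12 alternatives. Nidogen 2 (Nid2) was at -2.36, 1.68 and -0.85 (-2.53 ± 0.33), and the laminin chains Lama1 (-2.43 ± 0.58), Lamc1 (-1.82 ± 0.43) and Lamb3 (-1.40 ± 0.35) were lower and dim. The laminin chains Lama5 (3.82, 2.72 and 2.86, ratio 0.14 ± 0.16) and Lamb2 (3.32, 1.24 and 1.20, ratio -0.04 ± 0.21) were level. Outside the dimmest tercile 2 of 4 members were at least 2-fold lower. Schwann cells make laminins too, and their genes moved the same way. Their part in this result was not tested.

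Matrix proteases and their inhibitors went both ways, with 4 of 27 at least 2-fold higher and 5 lower. The macrophage elastase Mmp12 was at -3.94, 3.19 and 4.45 (1.26 ± 0.16), the collagenase Mmp13 at 1.14 ± 0.34 and urokinase (Plau), which activates plasmin, at -5.29, -0.95 and 0.46 (1.41 ± 0.30). Adamts9, a versican-cleaving protease, was at 2.23, -0.71 and 1.01 (1.73 ± 0.24). On the lower side were Timp1, the injury-induced inhibitor of metalloproteinases (3.59, 5.04 and 3.23, ratio -1.81 ± 0.05), and Adamts7 (-0.81, 2.76 and 1.14, ratio -1.62 ± 0.22), which cleaves Comp. Mmp2 (6.37, 6.89 and 6.32, ratio -0.57 ± 0.12) and Timp2 (-0.35 ± 0.16) were within 2-fold. The letters TGANTCA of AP-1 sites were in 5 of 20 promoters of this list (25%) and in 7.33% of all.

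Endothelial genes lay a little above all genes, and most were within 2-fold. Of 19 with a ratio, 1 was at least 2-fold higher, Icam2 (1.22 ± 0.64), and 1 lower, Sele (-1.11 ± 1.0). The median was 0.36, 0.55 above all genes, a side that turned in 1 of 12 alternatives. The VEGF receptor Kdr was at -0.54, 0.99 and 1.77 (0.77 ± 0.15), Emcn at -3.42, -0.82 and -0.19 (0.63 ± 0.33) and thrombomodulin (Thbd) at 3.22, 3.31 and 3.88 (0.58 ± 0.16). The tight junction gene Cldn5 (-1.98, 0.90 and 0.40, ratio -0.50 ± 0.29) and nitric oxide synthase (Nos3, -1.61, 0.42 and -0.16, ratio -0.59 ± 0.10) were on the lower side. Kdr, Emcn, Cldn5 and Nos3 had their lowest level of the 3 in the uninjured artery. The leukocyte adhesion genes Vcam1 (4.16, 5.52 and 5.87, ratio 0.35 ± 0.12) and Icam1 (0.40 ± 0.05) were close between the days.

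Schwann cell and nerve genes were lower at day 21, with list medians among the lowest of all 48 lists. Schwann cells wrap the axons of peripheral nerves, and after nerve damage they turn into a dividing repair state. Of 5 genes of immature and repair Schwann cells with a ratio, all 5 were at least 2-fold lower, with a median of -2.04. Of the 10 on the shared probes, 6 were well above background at day 7, and 4 were so on neither injured array. Of 8 myelin genes, 4 were lower and none higher, with a median of -1.46. The 2 medians lay 1.85 and 1.26 below all genes, and below them under all 11 and 12 alternatives that could be computed. Outside the dimmest tercile, 3 of 3 and 3 of 6 members were at least 2-fold lower.

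Sox10, the transcription factor of the Schwann lineage, was at -0.95, 3.15 and -1.87 (-5.02 ± 0.30), and Ngfr, the neurotrophin receptor of immature and repair Schwann cells, at -3.70, 1.06 and -4.80 (-5.86 ± 0.16). Both were lower at day 21 than in the uninjured artery. The myelin proteins Pllp (-5.17, 0.93 and -4.64, ratio -5.57 ± 0.50) and Cnp (-2.86, 0.04 and -3.46, ratio -3.50 ± 0.30) were also highest at day 7. Periaxin (Prx) and Mal, seen at day 7 and not at day 21, were at least 51.3-fold and 24.6-fold lower. Pmp22, which many cell types express, was level (3.71, 3.75 and 3.33, ratio -0.42 ± 0.16), as was Mobp (-0.30 ± 0.34). All 11 myelin genes on the shared probes were well above background at day 7, against 7 in the uninjured artery and 8 at day 21.

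Genes of neurons, whose axons but not cell bodies lie in the artery, were few. Of 4 with a ratio, 3 were at least 2-fold lower and none higher. Neuropeptide Y (Npy), stored in sympathetic nerve endings, was at 5.07, 6.74 and 2.90 (-3.84 ± 0.05), and galanin (Gal), a peptide of injured nerves, at -0.54, 0.99 and -2.07 (-3.07 ± 0.09). The neurofilament chains Nefl (-2.26 ± 0.91) and Nefm (at least 17.5-fold lower, not well above background at day 21) were lower, whereas Nefh, seen at day 21 and not at day 7, was at least 3.23-fold higher. Kcna1, a potassium channel of myelinated axons, was at least 54.2-fold lower at day 21. Among the genes with the lowest ratios, Fxyd6, Nrgn (0.62, 2.94 and -1.03, ratio -3.97 ± 0.34) and Pea15 (-3.78 ± 0.39) are also known from nervous tissue. The letters ACAATG of SOX sites were found in 0 of 6 myelin promoters and in 13% of all.

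Skeletal and cardiac muscle genes were also on the lower side. Of 15 striated muscle genes with a ratio, 8 were at least 2-fold lower and none higher, where 20.1% of all genes were lower. The median was -1.34, 1.15 below all genes, and below them under all 12 alternatives, although the median itself turned to 0.0299 when each array was scaled by its own design and to 0.16 in the authors' deposited table. Embryonic myosin (Myh3, -2.91, -1.42 and -4.90, ratio -3.48 ± 0.56), the fast light chain Myl11 (-2.78, -0.56 and -4.05, ratio -3.48 ± 0.48) and Actn3 (-2.40, 0.10 and -3.34, ratio -3.43 ± 0.26) were lowest. Of 15 members 11 were in the dimmest tercile, where 38.4% of all genes were at least 2-fold lower. Of the 4 outside that tercile 1 was at least 2-fold lower, against 11% of such genes, and their median was -0.42. Troponin I of fast muscle (Tnni2, 1.33, 1.31 and 1.19, ratio -0.13 ± 0.21) and myoglobin (Mb, -0.59 ± 0.31) were close between the days. The part of muscle or nerve taken with the artery in these results was not tested.

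In the TGF-beta and BMP family, Smad1, Smad7 and Id genes were higher at day 21 and Tgfb3 lower. BMP receptors act through Smad1, which switches on Id genes, and Smad7 feeds back on both branches. Of 26 members with a ratio, 8 were at least 2-fold higher and 5 lower, with a median of 0.05, 0.25 above all genes. Smad1 was at -0.60, -2.85 and -0.45 (2.40 ± 0.39), Smad7 at 1.91, -0.37 and 1.45 (1.82 ± 0.18) and the receptor Bmpr2 at 1.56 ± 0.80. The targets Id1 (2.39, -0.17 and 1.36, ratio 1.52 ± 0.17), Id2 (0.93, 0.27 and 1.86, ratio 1.59 ± 0.14) and Id4 (2.97, -1.18 and 0.52, ratio 1.70 ± 0.31) were higher. All of Smad1, Smad7 and these 3 Id genes had their lowest level at day 7. Of the ligands, Tgfb3 was at 3.56, 3.45 and 1.48 (-1.97 ± 0.19), Tgfb1 at -1.80, 0.09 and -0.85 (-0.94 ± 0.10) and Bmp2 at -1.31, -3.55 and -3.53 (0.02 ± 1.1). Of the antagonists, Grem1 was lower (-2.05, 0.20 and -2.05, ratio -2.24 ± 0.28), and Sostdc1 was at -0.17, 2.28 and -4.30.

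Notch and Wnt genes were few. The Notch ligand Jag1 was at 0.73, -2.22 and 0.69 (2.90 ± 0.49), equal at day 21 to the uninjured artery, and the receptor Notch4 at -2.13, -0.68 and 0.41 (1.09 ± 0.28). Beta-catenin (Ctnnb1) was at 1.88 ± 0.39, and the Wnt antagonists Sfrp2 and Sfrp4 at 1.29 ± 0.15 and -1.05 ± 0.31. The Wnt target Axin2 and the ligand Wnt5a, seen at day 7 only, were at least 7.50-fold and 5.30-fold lower. Of 7 members with a ratio, 4 were at least 2-fold higher and 2 lower.

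Of 27 growth factor and receptor genes with a ratio, 3 were at least 2-fold higher and 6 lower (22.2%, against 20.1% of all genes). All 6 lower ones were in the dimmest tercile, and of 17 outside it 3 were higher and none lower. The median was 0.21 below all genes, a side that turned in 5 of 12 alternatives. Igf1 was at 4.57, 6.01 and 5.07 (-0.94 ± 0.16), Igf2 at 0.55, 1.5 and 1.85 (0.35 ± 0.15) and the receptor Igf2r, which clears Igf2, at 3.22, 1.94 and 3.51 (1.58 ± 0.15). Angpt2, which loosens vessels, was at 1.44 ± 0.39. The keratinocyte and epithelial growth factor Fgf10 (-2.32 ± 0.59), the EGF receptor ligand Tgfa (-2.19 ± 0.51) and the neurotrophin receptor Ntrk2 (-2.18 ± 0.65) were lowest. The imprinted non-coding RNA H19, whose gene neighbours Igf2, was at -1.29, 5.53 and 0.31 (-5.22 ± 0.31), and the imprinted growth suppressor Ndn at 1.24, 1.28 and -1.23 (-2.51 ± 0.32). H19 and Igf2 thus did not move together.

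Of 21 immediate-early and heat shock genes with a ratio, 5 were at least 2-fold higher and 1 lower, and the median was 0.33 above all genes. Immediate-early genes respond within minutes to growth factors, stress and tissue handling. Csrnp1 was at 0.62, -3.93 and -1.02 (2.92 ± 1.20), Klf4 at 3.98, 1.01 and 3.34 (2.33 ± 0.15), Nr4a3 at 3.37, -1.03 and 0.92 (1.94 ± 0.26), Nr4a1 at 6.42, 4.42 and 6.13 (1.71 ± 0.12) and Atf3 at 6.08, 1.74 and 3.35 (1.61 ± 0.15). These 5, the higher members, were lowest at day 7 and highest in the uninjured artery. A second probe of Csrnp1 had a ratio of 0.57, within 2-fold. Ier2 (0.62 ± 0.13), Dusp1 (0.18 ± 0.16), Myc (0.14 ± 0.05) and Klf2 (0.10 ± 0.16) were within 2-fold, and the small heat-shock protein Cryab was lower at each later array (6.36, 4.94 and 3.71, ratio -1.23 ± 0.16). The part of tissue handling was not tested.

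Genes of energy metabolism differed modestly. Of 41 subunits of oxidative phosphorylation with a ratio, 4 were at least 2-fold higher and none lower, and 37 lay within 2-fold. The median of 0.37 was 0.57 above all genes, and above them under all 12 alternatives. Atp5f1b of the ATP synthase was at 1.05, -1.45 and 0.58 (2.03 ± 0.26) and Ndufa5 of complex I at 5.58, 3.09 and 4.35 (1.25 ± 0.16). At the other end were Uqcrh (5.34, 5.28 and 4.37, ratio -0.91 ± 0.16) and Sdhc (-0.85 ± 0.23). The median level of the list was 4.28, 3.22 and 3.60 on the 3 arrays. Glycolysis and hypoxia genes had 1 of 23 members at least 2-fold higher, the vasodilator peptide Adm (0.62, -0.25 and 1.56, ratio 1.82 ± 0.05), and 8 lower. Lower were the first enzyme of the pathway, hexokinase 1 (Hk1, 1.12, 3.20 and 0.68, ratio -2.52 ± 0.27), and Ldhb (4.71, 5.01 and 3.43, ratio -1.58 ± 0.16). The glucose transporter Slc2a1 was equal at both times (2.40, 1.95 and 1.95, ratio 0.00 ± 0.05), and Aldoa (0.83 ± 0.15) and Pgam1 (0.91 ± 0.16) were on the higher side.

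Genes of protein folding in the endoplasmic reticulum were higher in part. Of 18 with a ratio, 5 were at least 2-fold higher and 1 lower, and the median of 0.49 was 0.68 above all genes and above them under all 12 alternatives. The chaperone Hyou1 was at 2.35, 0.37 and 2.54 (2.16 ± 0.14), Dnajb9 at 1.97 ± 0.75 and Herpud1, of the degradation of misfolded proteins, at 2.09, -0.35 and 1.57 (1.92 ± 0.17). The main chaperone Hspa5 was equal on the 3 arrays (4.0, 3.99 and 3.84, ratio -0.15 ± 0.16), and the disulphide isomerase Pdia6 was lower (2.74, 4.03 and 3.0, ratio -1.03 ± 0.16). Proteasome genes were mostly level, with 17 of 20 within 2-fold and the immunoproteasome subunits Psmb10 (1.54 ± 0.15) and Psmb8 (1.43 ± 0.34) higher, while Psmb9 was at -0.17 ± 0.16. Ribosomal protein genes had 11 of 13 within 2-fold.

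Interferon-induced genes went both ways, with 3 of 19 at least 2-fold higher and 2 lower. The GTPase Gbp2 was at 1.41, 3.33 and 1.60 (-1.74 ± 0.18) and Lgals3bp at 2.80, 4.34 and 2.84 (-1.51 ± 0.16). Isg15 (0.24 ± 0.34), Irf7 (0.42 ± 0.33) and Ifitm3 (0.13 ± 0.15) lay within 2-fold. Of 24 cell death genes 5 were at least 2-fold higher and 2 lower. These were led by Bcl2a1, a survival gene of leukocytes (1.85 ± 0.38), and by Casp6 (1.68 ± 0.32). In the sterol pathway, Insig1, a brake on cholesterol synthesis, was higher (1.5 ± 0.33), and of 11 genes 9 lay within 2-fold. The clock gene Bhlhe40 was higher (1.83 ± 0.24), with Bmal1 at 0.17 ± 0.31 and Per2 at 0.91 ± 0.26.

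Of 11 integrin genes with a ratio, 2 were at least 2-fold higher and 3 lower. Beside Itgb2, the collagen-binding Itga1 was higher (2.74, 1.75 and 3.35, ratio 1.60 ± 0.12). The fibronectin receptor chain Itga5 was at 0.20, 1.28 and -0.46 (-1.74 ± 0.32) and the lymphocyte chain Itgb7 at -1.70 ± 0.27. Coagulation genes had 3 of 16 at least 2-fold higher and 2 lower, with the anticoagulant Pros1 at 1.37 ± 0.88, tissue factor (F3) at 2.22, -0.20 and -0.15 (0.04 ± 0.31) and F10 at -1.75 ± 0.70. Bone and cartilage genes had 1 of 13 higher, the decoy receptor osteoprotegerin (Tnfrsf11b, 4.26, 1.26 and 2.38, ratio 1.12 ± 0.15), and 4 lower, among them osteocalcin (Bglap, -2.57 ± 0.33) and the phosphatase Alpl (2.0, -0.52 and -1.78, ratio -1.27 ± 0.30), which removes the mineralisation inhibitor pyrophosphate.

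**Figure D4:**
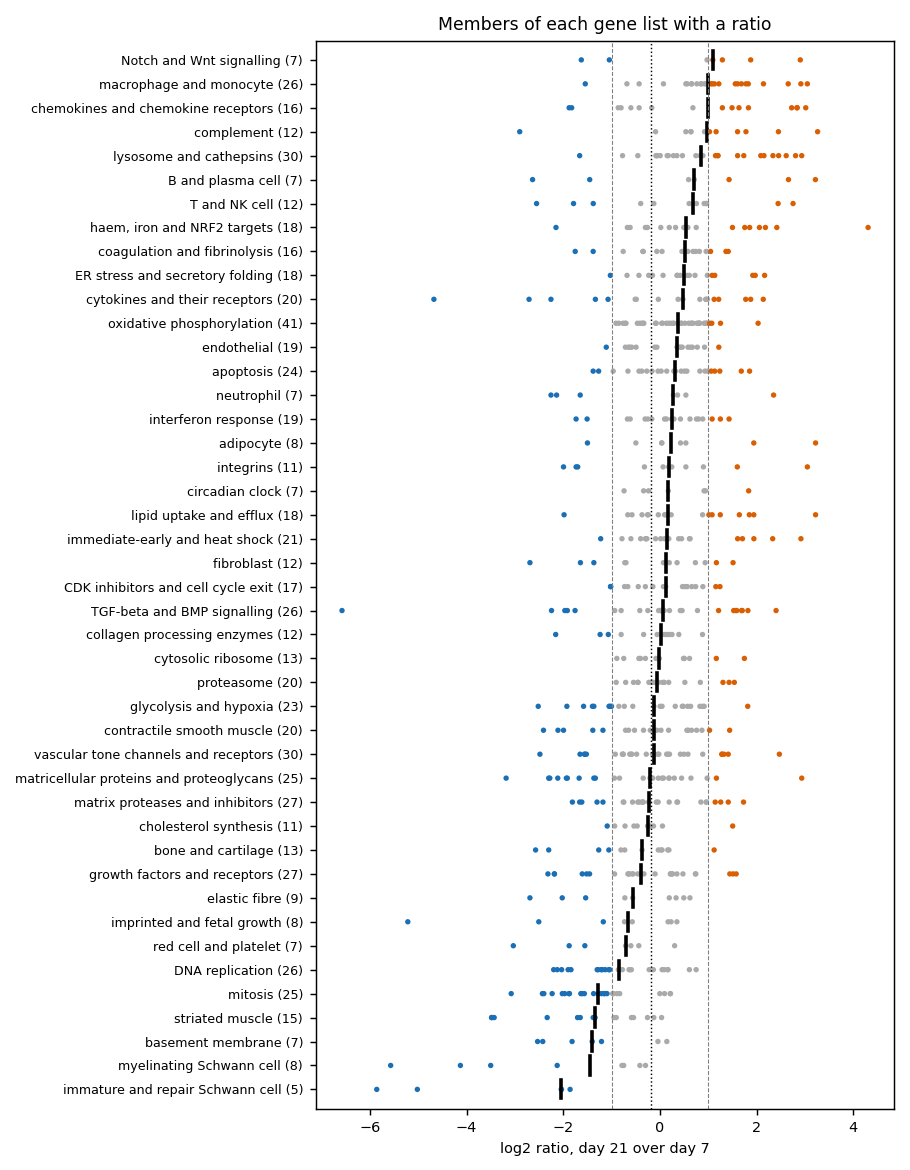
Log2 ratio of day 21 over day 7 for each gene with a ratio (points) in the gene lists with at least 5 such genes, the number in parentheses, sorted by the list's median (black bar). Orange points are at least 2-fold higher, blue at least 2-fold lower and grey within 2-fold, and the dotted line is the median of all genes at -0.19. The macrophage list stands near the top with a median of 1.0 and the repair Schwann cell list at the bottom with -2.04.

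**Figure D5:**
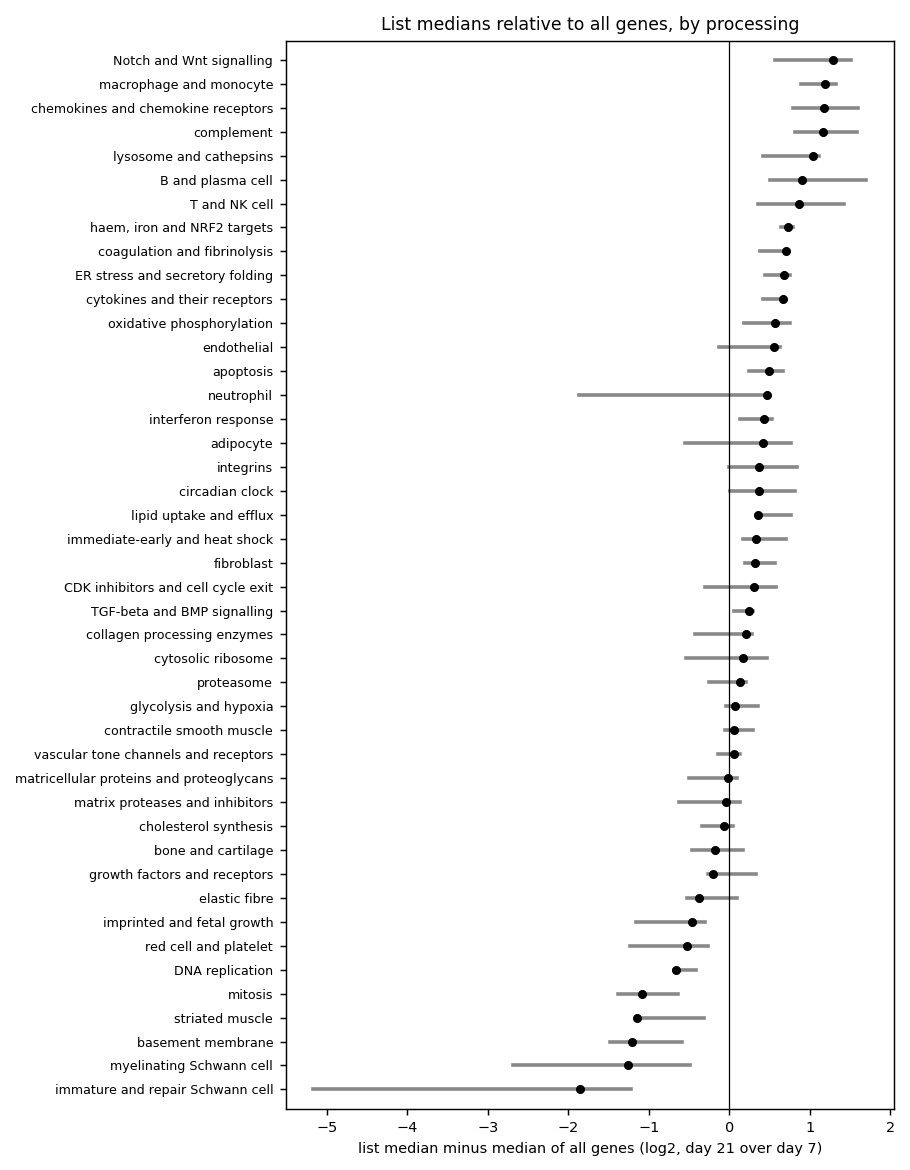
Median of each gene list minus the median of all genes (log2, day 21 over day 7) as reported (black point) and its range over up to 12 alternative ways of processing (grey bar). Alternatives that shift all genes equally leave this difference unchanged. The bars of the macrophage, lysosome, complement and chemokine lists lie wholly above 0, and those of the mitosis, DNA replication, basement membrane and Schwann cell lists wholly below it.

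Genes seen on 1 injured array only are given as bounds, dividing the measured signal by whichever is larger on the other array, its detection limit (the lowest signal called well above background) or the gene's reading. Of 549 genes seen at day 21 only, 115 were at least 2-fold higher, and of 685 seen at day 7 only, 675 were at least 2-fold lower. After scaling, the detection limit was a level of -4.47 at day 7 and -5.23 at day 21, so a gene missed at day 21 could pass 2-fold lower more easily than a gene missed at day 7 could pass 2-fold higher, and these counts are not to be compared. The largest bound at day 21 was that of Apold1, an immediate-early gene of endothelial cells, at least 36.1-fold higher (-1.64, -4.46 and 0.71). Pon3, a lactonase carried on high-density lipoprotein, was at least 9.78-fold higher, and Tnfrsf17, the plasma cell receptor BCMA, at least 5.67-fold higher. Among those lower were Plxnb3, a semaphorin receptor (at least 26.4-fold), Gpr83 (at least 25.4-fold) and Nfe2, a transcription factor of platelet formation (at least 12.8-fold). A further 921 genes were not well above background on either injured array and have no ratio.

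Different probes of 1 gene did not always go the same way. Of 121 genes with several measured probes, 52 had probes of opposite sign, and in 5, Elmo2, Hsf2, Slc43a2, Sort1 and Vcl, they passed 2-fold in opposite directions. The ratio given is that of the brightest probe.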

How the data were processed

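Whole carotid arteries were profiled on 3 one-colour Agilent arrays, 1 each for uninjured, day 7 and day 21, grouped by sample title. Spot intensity values (processed signal, background-subtracted and detrended within each array) are from Agilent Feature Extraction, per the file headers, which give release 11.0.1.1 at day 7 and 10.7.3.1 for both others. The submitters' processing notes give 10.7.3.1 for every sample. The authors' deposited table holds log2 values, with a normalization not given in the sources used here.

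Controls were dropped, as were spots flagged as outliers (0.242% of gene spots when uninjured, 1.46% at day 7, 0.274% at day 21). Log2 signals were averaged over the spots of a probe, and the 75th percentile over the 10602 probes on both designs was subtracted (signals of 127, 231 and 385). The number of arrays, 1 per group, limits the precision. The technical SD of a ratio was interpolated over 10 signal bins from replicate spots (263, 1390 and 263 probes).

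Names came from unversioned accessions looked up in RefSeq's GRCr8 gene table, and 8052 of the 10602 shared probes had a symbol. The array designs are annotated on rn4, so gene coordinates are not given. A gene was read at the probe with the highest mean level. Ratios needed a signal well above background on both arrays.

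The 48 gene lists, the motifs and the comparison itself were chosen with earlier results of these data known. Genes named were the 20 highest and 20 lowest ratios, the 10 largest bounds each way, and up to 6 members at either end of each list with those in the middle and those against the majority. Apold1 and other bounds follow the same rule, and not every gene that it selects is printed.

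Alternatives covered the scaling, the background correction (normexp, offset 50, on the median signal, as the files hold no mean signal), the filter on dim probes, the probe rule, flagged spots, the threshold (1.5-fold and 4-fold) and the deposited table. Leaving out the dimmest tercile of genes was added after seeing the data. The scaling and the 2-fold call were tested on simulated probe values, and the list step was not. R 4.3.3, limma 3.58.1, Python 3.11.15, numpy 2.4.6, pandas 2.3.3 and matplotlib 3.10.9 were used.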

Additional observations from a re-analysis of the deposited data

How the results depend on the processing

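No paired analysis was possible because each group has 1 array, and for the same reason no replicate could be left out. The counts of genes at least 2-fold higher and lower were 603 and 1136. They became 1214 and 630 with median scaling, 3248 and 162 with own-design scaling of each array, 955 and 658 after quantile normalization, and 1666 and 263 in the authors' deposited table. Without a filter on dim probes they were 998 and 2099, at 1.5-fold 1145 and 1909, and at 4-fold 119 and 312. The count of lower genes alone moved by over 1.5 times, to 670, 755, 497 and 414, after cyclic loess, with normexp, under the stricter filter and outside the dimmest tercile. The cause was not tested. The other 10 count values stayed within 1.5 times of those reported.

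Of the values past 2-fold, own-design scaling turned the medians of mitosis (0.095) and striated muscle (0.0299) and the ratios of Alpl (0.11), Cryab (0.15), Il33 (0.037), Ogn (0.0056), Pdia6 (0.35), Sele (0.26) and Sfrp4 (0.33), all of them smaller in size than the shift of 1.37 which that scaling gives every gene. In the deposited table, of values past 2-fold, the striated muscle median (0.16) and Itga7 (2.67), Ntrk2 (0.81), Sele (0.94) and Vcl (-1.99) had the opposite sign, and with the mean of a gene's probes Hsf2 (-0.031) and Slc43a2 (-0.32) did. Counting values of any size, own-design scaling turned the sign of 19 of 48 list medians and 44 of 302 gene ratios, the deposited table that of 14 of 44 and 29 of 243, and median scaling that of 12 and 21. These include DNA replication (0.52 and 0.11 under the first pair, against -0.85), elastic fibre (0.81 and 0.53, against -0.57), growth factors (0.97 and 1.01, against -0.40), the red cell (0.66, against -0.71) and imprinted lists (0.72, against -0.65) under own-design scaling, and neutrophil genes (-1.13, against 0.28) in the deposited table. Of the genes within 2-fold, the deposited table put Srf (-4.02), Cdkn1a (-1.30), C2 (1.06) and Cxcl10 (1.58) past 2-fold on the other side. Relative to all genes, the medians of the macrophage, lysosome, complement, chemokine, mitosis, DNA replication and basement membrane lists kept their side under all 12 alternatives. Scalings that shift all genes equally are among the 12 and could not change that side. With signal near background only bounds or large technical SDs are available, and dim genes were lower at day 21 far more often than bright ones.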

Other observations

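The authors' deposited table has 9260 rows, all of them probes of the day 7 design. Of these, 3957 are not on the design of the day 21 array and yet carry a day 21 value. The column medians are 7.64, 7.62 and 7.64 for uninjured, day 7 and day 21, and the highest value is 17.6 in each column. Over the 5294 shared probes compared, the difference of day 21 from day 7 in that table correlated with the scanner difference at r = 0.78, across probes that share both arrays and are not independent replicates. The scale is log2 and the direction is that of the scanner signals, while the centring of the columns stays unknown.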
